A study of Mus musculus with 16 samples.

Results

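The comparison described here set the colon of Il10-/- mice against the colon of C57BL/6J mice when both ate the diet enriched in eicosapentaenoic acid (EPA), a long-chain n-3 fatty acid. The 4 arrays were chosen by their titles, 2 pools of Il10-/- mice and 2 pools of C57BL/6J mice on EPA, out of 16 arrays in the series. Among 19087 named genes in the table, 16773 had a measured value on all 4 of these arrays and are described here, and 2314 did not.

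The Il10-/- mice were males of B6.129P2-Il10tm1Cgn/J, which carry a targeted allele of the gene for interleukin 10, and the C57 mice were C57BL/6J males. Mice of both genotypes were given Enterococcus species and a mixed intestinal flora by mouth. They then ate a fat-free AIN-76A base with 1% corn oil and 3.7% EPA over 6 weeks, and tissue was taken after the age of 77 days. The C57 ration was tied to the mean intake of the Il10-/- mice. Each group had 6 mice, and each array received RNA pooled from 2 to 3 of them. Further groups of both genotypes ate arachidonic acid (AA, n-6), oleic acid (OA) or the AIN-76A control diet (CO), and they are used below to ask whether the genotype difference on EPA is unlike that on the other diets. The targeted allele is carried in every cell of the animal. Whether the pools of 1 group share mice is not in the labels, and the p-values below rest on the spread between arrays, which may be technical in part.

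Interleukin 10 is a cytokine, made largely by T cells and macrophages, that restrains responses of the gut immune system to bacteria. Mice without it develop chronic inflammation of the colon when intestinal bacteria are present, with T helper cells that secrete interferon gamma, activated macrophages and an influx of neutrophils. Interferon gamma acts through its receptor on genes of antigen presentation, on guanylate-binding proteins and on chemokines that attract T cells. EPA competes with arachidonic acid as a substrate of the enzymes that make prostaglandins and leukotrienes, and it is a ligand of the nuclear receptor PPAR alpha, which governs genes of fatty acid oxidation.

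Levels are given as the log2 ratio of a colon pool to a common reference RNA of gut, kidney, liver and fetal tissue, so that a level below 0 is under the reference. They can be compared between arrays for 1 gene but not between genes. A difference is the mean of the 2 Il10-/- EPA pools minus the mean of the 2 C57 EPA pools, given with the standard error of the limma fit, and a gene is called when its adjusted p is under 0.05. A difference of 1 is a doubling if the deposited scale is base 2, as limma writes it. The base is not given in the sources used here. On the EPA arrays 698 to 807 features shared exactly 1 value, which was treated as unmeasured. Igtp, an interferon-inducible GTPase, and Cd74, the MHC class II invariant chain, stood at that value on both Il10-/- EPA arrays and on neither C57 EPA array, so neither gene is described further. Of 13 epithelial markers 5 were measured, with mean levels of 0.92 and 0.89 in the Il10-/- pools and 0.92 and 0.97 in the C57 pools. The median difference over all 16773 named genes was 0.0047.

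One C57 array stood apart. C57 EPA pool 1 had high levels of genes that mark the small intestine. Sis, the sucrase-isomaltase of the brush border, had -2.91 and -3.30 in the Il10-/- EPA pools, against 0.02 in C57 EPA pool 1 and -1.74 in C57 EPA pool 2. Fabp6, the bile acid binding protein of the ileum, had -0.33 and -1.20 in the Il10-/- EPA pools, against 2.18 in C57 EPA pool 1 and 0.79 in pool 2. Apoa1, an apolipoprotein that enterocytes secrete, had -3.36 and -3.81 in the Il10-/- EPA pools, against 0.00 and -2.52 in the C57 EPA pools. The first C57 pool had the highest level of the 14 arrays with a value for Sis and of all 16 for Fabp6 and Apoa1. Only C57 AA pool 1 came near it, with 1.80 for Fabp6 and -0.15 for Apoa1. None of the 13 measured small intestine markers was called, although 10 of them had differences below 0. The mean level of adipocyte markers was also highest in these 2 arrays, at 1.15 in C57 EPA pool 1 and 1.24 in C57 AA pool 1. One further label matters: Il10-/- OA pool 1 has OA in its title and EPA in its source name, and it was kept as OA.

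**Figure D1:**
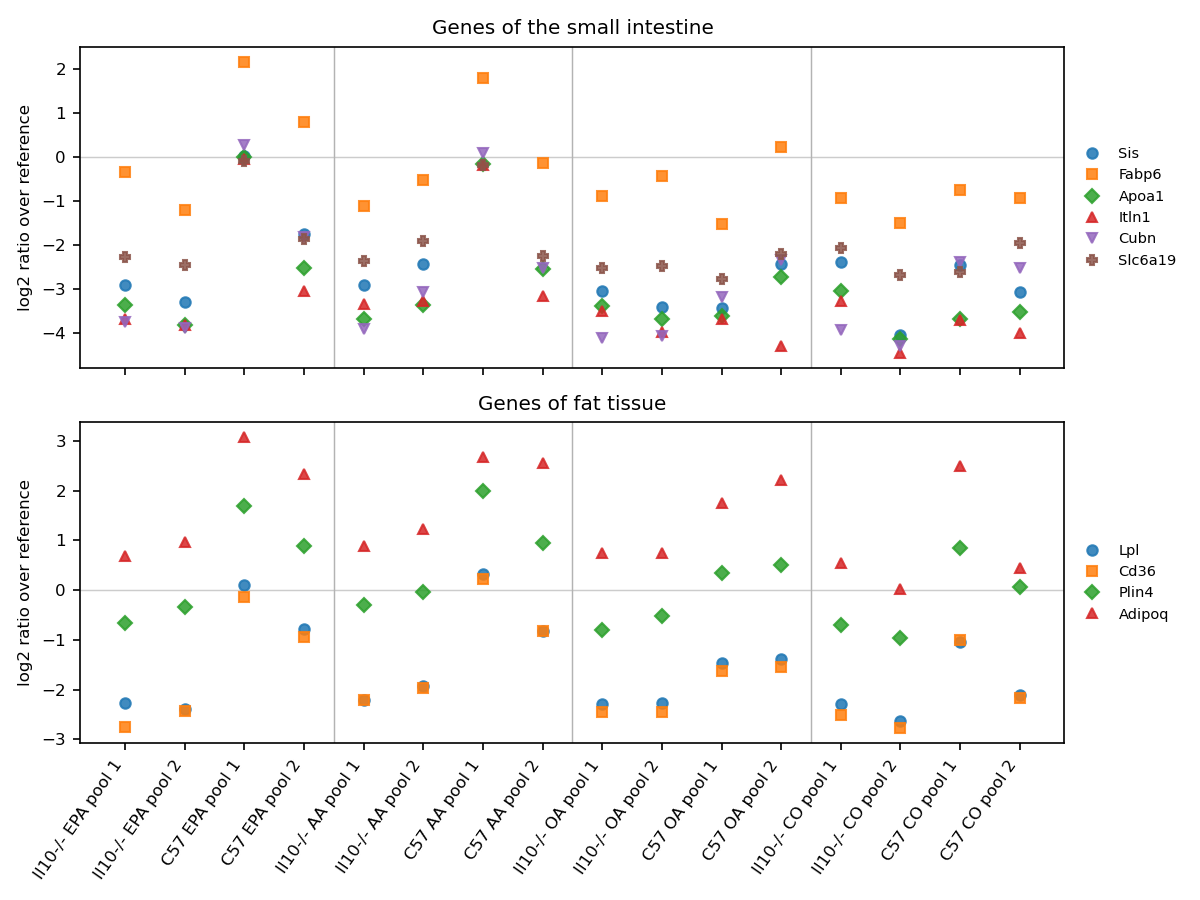
Log2 ratio to the reference (vertical axis) of 6 small intestine genes (top) and 4 genes of fat tissue (bottom) on the 16 arrays, grouped by diet with Il10-/- pools left of C57 pools. Points are single arrays, and missing points had no measured value. C57 EPA pool 1 and C57 AA pool 1 stand above the other arrays for the small intestine genes.

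Between the genotypes on EPA, 396 of 16773 named genes were called (2.36%), 279 higher in Il10-/- mice (1.66%) and 117 lower (0.698%). With the unnamed features included, 477 of 23407 tests were called (2.04%). The called differences ran between -2.05 and 4.00, and 95 rises and 30 falls were larger than 1. In 21.1% of all named genes both Il10-/- pools lay above both C57 pools, and in 20.1% both lay below. The gene lists below were chosen with earlier results of these data known, and their counts are to be set against these shares. At the shares called, a short list can have 0 called without standing apart. The number called fell to 265 without Il10-/- EPA pool 1, 165 without Il10-/- EPA pool 2, 176 without C57 EPA pool 1 and 301 without C57 EPA pool 2 (named genes and unnamed features together, against 477). Of the 396 named genes, 79 were called in all 4 of these fits, 120 were called in none, and 0 had the opposite sign in any of them. Where both pools of 1 genotype lie above both of the other, leaving out a pool cannot change the sign. The 0 opposite signs therefore do not measure stability. With Il10-/- OA pool 1 counted as an additional Il10-/- EPA pool the number called was 892.

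**Figure D2:**
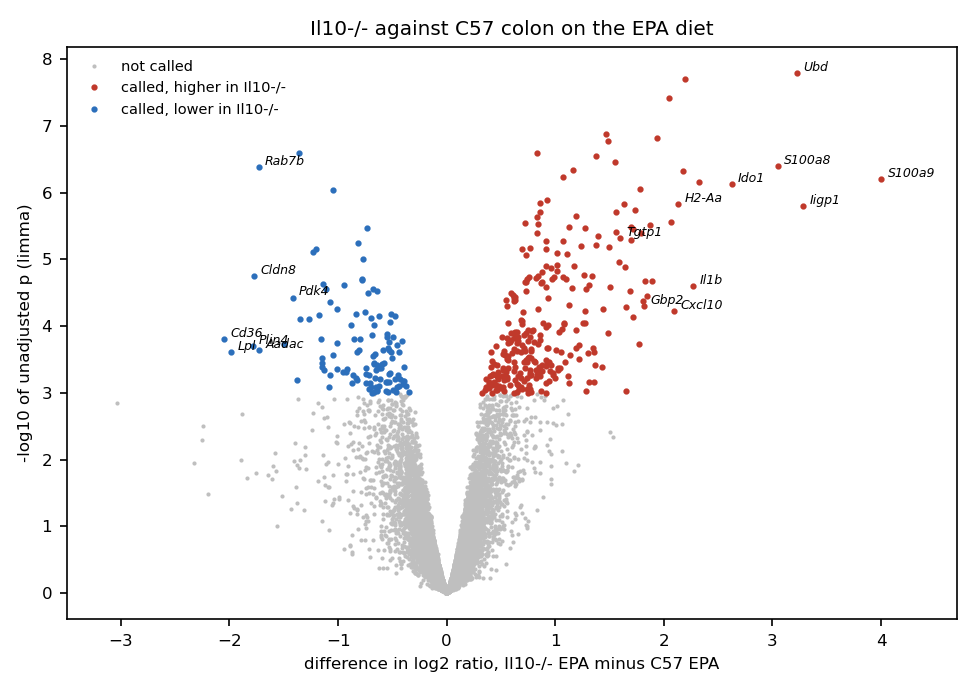
Difference in log2 ratio, Il10-/- EPA minus C57 EPA (horizontal axis), against -log10 of the unadjusted p of the limma fit (vertical axis) for 16773 named genes. Coloured points are the 279 genes called higher and 117 called lower, and the largest called differences are rises, led by S100a9 at 4.00.

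The largest rises included genes of neutrophils, interferon gamma targets and antigen presentation. S100a9, a subunit of the neutrophil protein calprotectin, had 2.85 and 2.94 in the Il10-/- pools, against -1.88 and -0.34 in the C57 pools. The difference was 4.00 ± 0.42, or 16-fold if the scale is base 2, with an adjusted p of 0.000815. Its partner S100a8 had 1.95 and 2.38 in the Il10-/- pools, against -1.23 and -0.55 in the C57 pools (difference 3.05 ± 0.31). The groups do not overlap for either subunit, and for S100a9 the Il10-/- pools are nearly equal while the C57 pools lie apart. Ubd, a ubiquitin-like protein that marks proteins for degradation, had 1.28 and 1.24 in the Il10-/- pools, against -1.94 and -1.99 in the C57 pools, a difference of 3.23 ± 0.24 (adjusted p = 0.000156). Within each genotype its pools were nearly equal. Tifa, an adaptor of the signalling that bacterial sugars trigger, rose by 2.18 ± 0.22. Zbp1, a sensor of nucleic acids, rose by 1.94 ± 0.18. Of the 15 largest rises 13 were called whichever EPA pool was left out. Without Il10-/- EPA pool 2 the adjusted p of Il1b was 0.0568, and without C57 EPA pool 1 that of Cxcl10 was 0.0715.

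Among the 15 largest falls, 5 were called whichever pool was left out, namely Cldn8, Rab7b, Mgat5, Kcna1 and Acsl3. Cldn8, a claudin that seals tight junctions in the distal colon, had -2.59 and -2.08 in the Il10-/- pools, against -0.14 and -1.0 in the C57 pools (difference -1.77 ± 0.26, adjusted p = 0.0049). Both Il10-/- pools lay below both C57 pools. Kcna1, a voltage-gated potassium channel, fell by 1.23 ± 0.17. Mgat5, a glycosyltransferase that branches N-glycans, fell by 1.36 ± 0.13. Rab7b, a small GTPase of late endosomes, fell by 1.73 ± 0.18, with -0.08 and -0.10 in the Il10-/- pools, against 1.59 and 1.70 in the C57 pools. The remaining 10 were Cd36, Lpl, Plin4, Aadac, Spon2, Pdk4, Aoc3, Sult1c2, Ccdc80 and Sycn. Spon2, a secreted matrix protein, had a difference of -1.50, which became -0.91 without C57 EPA pool 1, with an adjusted p of up to 0.141 over the 4 fits. Sycn, a protein of zymogen granules, fell by 1.18 ± 0.20.

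Rab7b and Mgat5 are neighbours of Il10 on chromosome 1 in the order of the RefSeq annotation (GRCm38.p6), 10 and 23 measured named genes away from it on opposite sides. The name B6.129P2 says that the allele came from another mouse strain and was bred to C57BL/6, and in such lines DNA of the donor strain can remain beside the targeted gene. Rab7b had differences of -1.73 on EPA, -1.56 on AA, -1.01 on OA and -1.29 on CO, and Mgat5 had -1.36, -1.09, -1.21 and -1.62. Both were called on all 4 diets. Of the 50 measured genes on each side of Il10, a window chosen after the values were seen, these 2 of 100 were called on EPA (2%), against 2.36% of all genes placed by the annotation. Whether strain DNA takes part in either difference was not tested.

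**Figure D3:**
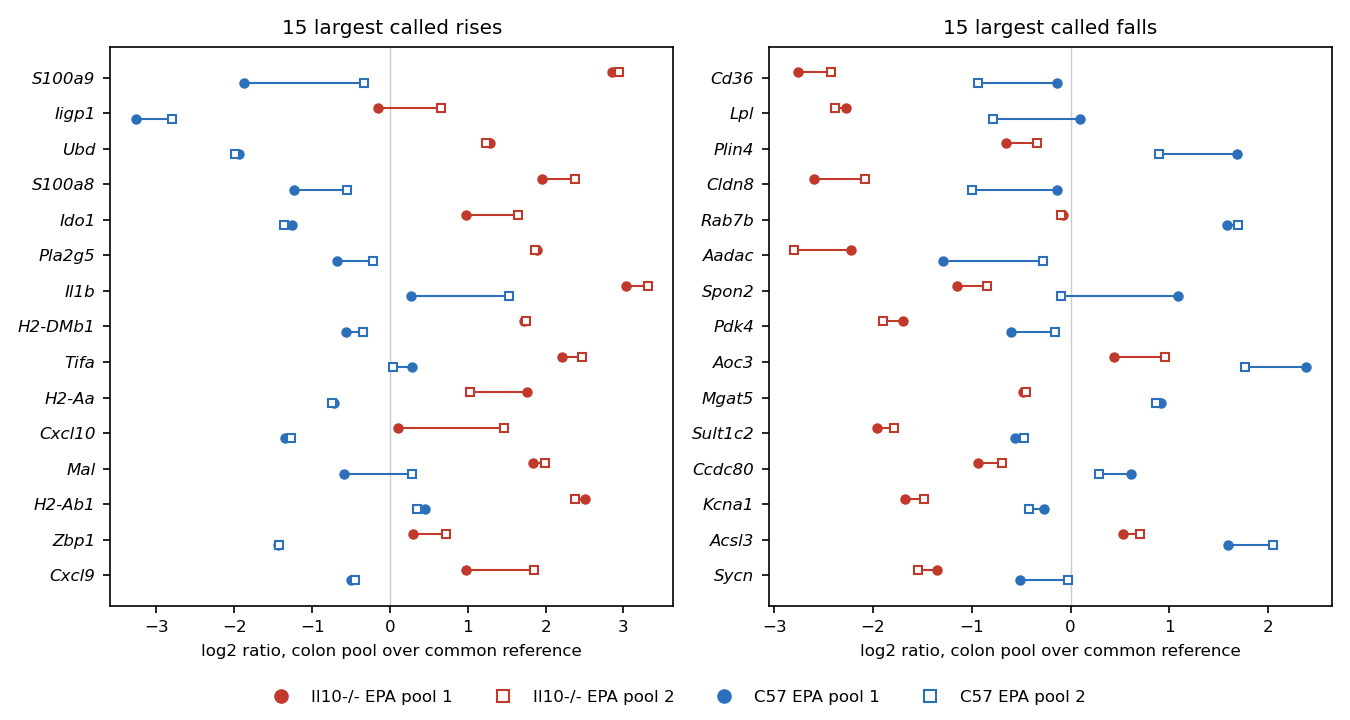
Log2 ratio to the reference (horizontal axis) of the 15 largest called rises (left) and 15 largest called falls (right) in each EPA pool, with Il10-/- pools in red and C57 pools in blue, joined by a line within a genotype. Both pools of a genotype lie on 1 side of both pools of the other for every gene drawn. The genes were chosen by their difference between these same pools, so this follows in part from the choice. Over all named genes both Il10-/- pools lay above in 21.1% and below in 20.1%.

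Cytokine genes that drive this kind of inflammation were among those that rose. Of 22 measured cytokines 6 were called higher and 0 lower, with a median difference of 0.20. Il1b, the inflammatory cytokine of macrophages and neutrophils, had 3.03 and 3.31 in the Il10-/- pools, against 0.27 and 1.53 in the C57 pools (2.27 ± 0.34). The 2 C57 pools differ by more than 1, and without C57 EPA pool 1 the difference was 1.64. Tnf had 1.36 and 1.52 in the Il10-/- pools, against -0.06 and 0.01 in the C57 pools (1.47 ± 0.13). Ifng, which encodes interferon gamma, had 0.89 and 1.49 in the Il10-/- pools, against -0.08 and -0.02 in the C57 pools (1.24 ± 0.16, adjusted p = 0.0026). For both genes every Il10-/- pool was well above every C57 pool, and both were called whichever pool was left out. Il1a rose by 0.56 ± 0.10 and Tnfsf13b, the B cell survival factor, by 0.69 ± 0.15. The number of called cytokines was 5 and 4 without Il10-/- pool 1 or 2, and 3 and 4 without C57 pool 1 or 2.

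Il10 itself was called higher in the mice with the targeted allele. Its level was 0.62 and 0.45 in the Il10-/- pools, against -0.32 and -0.08 in the C57 pools, a difference of 0.74 ± 0.11 (adjusted p = 0.0049). Without C57 EPA pool 1 the difference was 0.62 and was not called. The position of the Il10 probe relative to the altered part of the gene was not given in the sources used here, so this signal checks neither the labels nor the presence of an intact transcript.

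Receptors and suppressors of cytokine signalling had 6 of 22 members called higher and 0 lower (median 0.37). Socs3, which damps signalling through STAT3, had 1.17 and 1.08 in the Il10-/- pools, against -0.57 and -0.31 in the C57 pools (1.56 ± 0.18). Socs1, which damps interferon signalling, rose by 1.84 ± 0.29, with 0.59 and 1.57 in the Il10-/- pools, against -0.64 and -0.88 in the C57 pools. Il18r1, a receptor chain for interleukin 18, rose by 0.86 ± 0.10. The list also held Il4ra (0.78), Il12rb1 (0.63) and Tnfrsf1b (0.55), the last as the mean of 2 features that disagree, at 0.13 and 0.97. In this list 5, 2, 3 and 4 members were called when Il10-/- pool 1, Il10-/- pool 2, C57 pool 1 or C57 pool 2 was left out. Socs1 was not called without Il10-/- pool 2.

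Most genes listed as responses to interferon gamma were called higher. Of 25 measured members 18 were called higher and 0 lower, the median difference was 1.28, and in 25 of 25 both Il10-/- pools lay above both C57 pools. Over all named genes the shares were 1.66% called higher and 21.1% with both Il10-/- pools above. The list was chosen with earlier results of these data known. Iigp1, a GTPase that attacks the vacuoles of intracellular parasites, had -0.15 and 0.66 in the Il10-/- pools, against -3.27 and -2.80 in the C57 pools (3.28 ± 0.30). Its relatives Irgm2, Irgm1 and Tgtp1 rose by 1.73 ± 0.20, 1.65 ± 0.27 and 1.60 ± 0.21. The value of Tgtp1 is the mean of 2 features that disagree, at 0.11 and 3.09, and the gene has a near-identical copy, so its signal may be shared. Ido1, whose enzyme breaks down tryptophan, had 0.98 and 1.65 in the Il10-/- pools, against -1.25 and -1.37 in the C57 pools (2.63 ± 0.28). In Cxcl10, Gbp4 and Socs1 the 2 Il10-/- pools lay apart, with the second one higher. The guanylate-binding proteins Gbp2, Gbp4, Gbp6, Gbp3 and Gbp8 rose by 1.82, 1.71, 1.28, 1.22 and 1.08. Cd274, the checkpoint ligand PD-L1, rose by 1.27 ± 0.18. The transcription factor Irf1 had a difference of 0.73 ± 0.21 and was not called (adjusted p = 0.12). The list had 15 called members without Il10-/- pool 1, 8 without Il10-/- pool 2, 8 without C57 pool 1 and 12 without C57 pool 2, and its median stayed between 1.04 and 1.54.

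The promoters of 4 of these genes are shown because the interferon-stimulated response element and the gamma-activated site are the best described DNA elements of interferon responses. The windows run from 250 bases before to 50 bases after the start of the gene and come from RefSeq on GRCm38.p6, written 5′ to 3′ on the strand of the gene. Capitals mark matches on either strand to GAAANNGAAA (response element core), TTCNNNGAA (gamma-activated site) and CTGATTGG (Y box core).
Cxcl10 (chr5:92348840-92349139, minus strand): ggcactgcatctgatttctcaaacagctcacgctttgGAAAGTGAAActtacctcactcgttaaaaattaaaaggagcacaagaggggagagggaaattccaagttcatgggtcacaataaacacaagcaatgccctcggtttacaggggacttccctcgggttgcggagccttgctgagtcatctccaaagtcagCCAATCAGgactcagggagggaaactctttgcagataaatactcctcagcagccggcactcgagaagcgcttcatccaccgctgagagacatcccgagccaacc
Gbp2 (chr3:142620413-142620712, plus strand): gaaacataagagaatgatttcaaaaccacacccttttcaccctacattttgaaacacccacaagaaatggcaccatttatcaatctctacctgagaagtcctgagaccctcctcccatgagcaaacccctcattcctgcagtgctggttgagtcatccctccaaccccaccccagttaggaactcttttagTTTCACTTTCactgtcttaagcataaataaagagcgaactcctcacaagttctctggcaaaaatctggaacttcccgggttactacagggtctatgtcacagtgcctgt
Irgm2 (chr11:58214727-58215026, plus strand): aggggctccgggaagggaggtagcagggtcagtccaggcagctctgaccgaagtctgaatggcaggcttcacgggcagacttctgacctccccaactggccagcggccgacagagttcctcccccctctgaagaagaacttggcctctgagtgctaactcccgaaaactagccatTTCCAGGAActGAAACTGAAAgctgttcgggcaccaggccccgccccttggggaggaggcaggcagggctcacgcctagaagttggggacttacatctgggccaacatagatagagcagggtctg
Tgtp1 (chr11:48992197-48992496, minus strand): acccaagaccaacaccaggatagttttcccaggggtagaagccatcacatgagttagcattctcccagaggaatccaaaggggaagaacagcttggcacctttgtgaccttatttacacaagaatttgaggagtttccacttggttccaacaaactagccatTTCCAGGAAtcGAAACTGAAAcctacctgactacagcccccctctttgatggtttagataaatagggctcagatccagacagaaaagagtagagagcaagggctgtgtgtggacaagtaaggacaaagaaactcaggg
Irgm2 and Tgtp1 both carry a gamma-activated site followed within a few bases by a response element core. In Irgm2 they begin at -75 and -64 from the start, and in Tgtp1 at -88 and -77. Cxcl10 has its response element core at -213, and Gbp2 has one on the opposite strand at -59. Of 18 called members of the list 12 had a window, and 7 of these held a response element core and 3 a gamma-activated site. Over the 13499 tested genes with a window the shares were 3.96% and 8.81%, and over the 207 genes called higher they were 13.5% and 16.4%. Over the 89 genes called lower, 4.49% held the first element and 4.49% the second. The NF-kappa B letters GGGANTTTCC stood in 3.38% of windows of genes called higher, against 0.541% of all. A match is a description of letters and not a site shown to be used here.

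Genes of type I interferon, which partly overlap with those of interferon gamma in their biology, had fewer members called than the interferon gamma list. Their share was still above the 1.66% of all named genes called higher. Of 24 measured members 4 were called higher (Zbp1, Usp18, Ifit2 and Bst2) and 0 lower, with a median of 0.21. Usp18, a protease that removes ISG15 from proteins, rose by 0.88 ± 0.15 and Ifit2 by 0.83 ± 0.18. The 2 features of Ifit2 were at 0.35 and 1.30. Ifit2 and Bst2 were called in none of the 4 fits without a pool. Between 1 and 2 members were called when a pool was left out.

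Some genes of both classes of MHC rose. MHC class II had 6 of 10 measured genes called higher and 0 lower, with a median of 1.23, and in 8 of 10 both Il10-/- pools lay above both C57 pools. H2-Aa, an alpha chain, had 1.76 and 1.03 in the Il10-/- pools, against -0.71 and -0.75 in the C57 pools (2.13 ± 0.24). Its partner chain H2-Ab1 had 2.50 and 2.38 in the Il10-/- pools, against 0.45 and 0.34 in the C57 pools (2.04 ± 0.17). The peptide-loading genes H2-DMb1 and H2-DMa rose by 2.19 ± 0.17 and 1.55 ± 0.15. These 4 genes were called whichever pool was left out, while H2-Eb1 (1.69 ± 0.26) was not called without Il10-/- pool 2 or without C57 pool 1. Ciita, the transactivator of MHC class II genes, had 0.92 and 1.27 in the Il10-/- pools, against -0.10 and 0.57 in the C57 pools, and was not called (0.86 ± 0.23, adjusted p = 0.0861).

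The H2-Aa and H2-Eb1 windows are shown because MHC class II promoters share the Y box, an inverted CCAAT box bound by NF-Y close to the start of the gene.
H2-Aa (chr17:34287774-34288073, minus strand): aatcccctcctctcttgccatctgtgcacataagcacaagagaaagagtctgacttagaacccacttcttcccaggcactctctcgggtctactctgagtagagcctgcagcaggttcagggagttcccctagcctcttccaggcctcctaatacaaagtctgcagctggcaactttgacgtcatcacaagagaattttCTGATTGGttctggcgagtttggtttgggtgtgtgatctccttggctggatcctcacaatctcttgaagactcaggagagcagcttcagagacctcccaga
H2-Eb1 (chr17:34305617-34305916, plus strand): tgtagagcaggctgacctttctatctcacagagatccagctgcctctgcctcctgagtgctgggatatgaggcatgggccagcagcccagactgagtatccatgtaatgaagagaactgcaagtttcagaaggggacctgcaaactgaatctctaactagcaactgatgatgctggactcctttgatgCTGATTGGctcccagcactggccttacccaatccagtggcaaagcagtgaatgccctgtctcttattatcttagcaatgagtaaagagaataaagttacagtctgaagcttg
The Y box core begins at -51 in H2-Aa and at -62 in H2-Eb1. It stood in 2 of the 5 called MHC class II genes with a window, in 7.25% of genes called higher, in 10.1% of genes called lower and in 5.53% of all tested genes with a window.

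MHC class I and its peptide supply had 6 of 11 genes called higher and 0 lower, with a median of 0.72. Psmb9 and Psmb8, catalytic subunits of the immunoproteasome, rose by 1.78 ± 0.19 and 1.72 ± 0.21. Psmb9 had 0.57 and 0.52 in the Il10-/- pools, against -1.18 and -1.30 in the C57 pools. Tap1, which carries peptides into the endoplasmic reticulum, had 1.16 and 0.72 in the Il10-/- pools, against -0.70 and -0.60 in the C57 pools (1.59 ± 0.22). B2m, the light chain of class I molecules, rose by 1.02 ± 0.14. These 4 genes were called in each fit without 1 pool. Tap2 (0.72) and H2-M3 (0.86) were called in 1 of those 4 fits.

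Some chemokine genes rose, among them attractants of T cells and of neutrophils. Of 28 measured chemokines 9 were called higher and 0 lower, with a median of 0.44. Cxcl9 and Cxcl10, ligands of CXCR3 on T helper cells, rose by 1.89 ± 0.28 and 2.09 ± 0.35. Cxcl10 had 0.11 and 1.46 in the Il10-/- pools, against -1.35 and -1.27 in the C57 pools. The 2 Il10-/- pools differ by more than 1, yet both lie above both C57 pools. Neutrophil attractants followed with Cxcl3 (1.31 ± 0.22), Cxcl1 (1.22 ± 0.23) and Cxcl2 (0.84 ± 0.16). Without C57 pool 1 the difference of Cxcl1 was 0.78 and was not called. Ccl4, made by activated macrophages, rose by 1.01 ± 0.14. Ccl19 (0.84), Ccl5 (0.80) and Cxcl13 (1.28), which guide lymphocytes and dendritic cells, were also called. Ccl2, the monocyte attractant, had 0.77 and 1.29 in the Il10-/- pools, against -0.02 and 0.51 in the C57 pools, and was not called (adjusted p = 0.0786). Ccl25, the chemokine of the small intestine, had -2.17 and -2.27 in the Il10-/- pools, against 0.48 in C57 EPA pool 1 and -1.41 in pool 2. The list had 4, 5, 3 and 9 called members without Il10-/- pool 1, Il10-/- pool 2, C57 pool 1 and C57 pool 2.

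Several markers of neutrophils and macrophages rose. Of 19 neutrophil markers 7 were called higher (median 0.46) and of 20 macrophage and monocyte markers 10 (median 0.49), with 0 called lower in either. Camp, an antimicrobial peptide of neutrophil granules, had 0.59 and 0.71 in the Il10-/- pools, against -0.39 and -0.52 in the C57 pools (1.10 ± 0.16). Ltf, the iron-binding lactoferrin, rose by 0.91 ± 0.12. Lcn2, which binds bacterial siderophores, had 1.76 and 1.19 in the Il10-/- pools, against 0.10 and 0.15 in the C57 pools (1.35 ± 0.26). The 4 pools of Lcn2 do not overlap between genotypes. Retnlg rose by 1.00 ± 0.21 and Mpo, the myeloperoxidase, by 0.46 ± 0.10. Only some of the 7 called neutrophil markers kept the call in every fit without 1 pool. In whole tissue, more cells of a type and more RNA per cell cannot be told apart.

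Clec7a, the receptor for fungal glucans, led the macrophage list at 1.19 ± 0.23. Cd14, the co-receptor for endotoxin, had 0.82 and 0.61 in the Il10-/- pools, against -0.61 and -0.14 in the C57 pools (1.09 ± 0.22). The Fc receptors Fcgr3 and Fcgr1 rose by 0.83 ± 0.10 and 0.71 ± 0.13. The complement subunits C1qa, C1qb and C1qc, which tissue macrophages make, rose by 0.75, 0.70 and 0.63. Adgre1, a surface receptor of mature macrophages, had a difference of 0.35 ± 0.18 (adjusted p = 0.468). The count of called macrophage markers was 7, 5, 2 and 6 without Il10-/- pool 1, Il10-/- pool 2, C57 pool 1 and C57 pool 2, and Fcgr3 and C1qa were called in all 4 fits.

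The lymphoid lists had some genes called higher, against 1.66% of all named genes. The T cell list had 1 of 14 called, the receptor subunit Cd3g (0.69 ± 0.12), and the list of cytotoxic cell genes 1 of 14, the protease Gzma (1.34 ± 0.20). Gzma had 0.12 and 0.52 in the Il10-/- pools, against -0.86 and -1.17 in the C57 pools, and it was not called without Il10-/- pool 2. Of 11 B cell markers Cd79b was called (0.98 ± 0.21), and of 12 plasma cell markers Ighm, Pou2af1 and Mzb1 were called, at 0.73 to 0.77. Cd3g and Cd79b were not called without Il10-/- pool 2 or without C57 pool 1. The 4 features of Ighm ran between 0.09 and 1.55, with 1 of them called. At most 1 plasma cell marker was called in a fit without 1 pool. The lists of dendritic cell (11 genes), mast cell (10) and eosinophil markers (5) had 0 called, and mast cell markers had a median of -0.12. At the 2.36% called over all named genes, 0 calls in lists of this size do not set these cell types apart.

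Some secreted and epithelial defence genes rose. Of 19 measured members 8 were called higher and 0 lower, with 11 above 0 and 8 below, and a median of 0.30. In 8 of the 19 both Il10-/- pools lay above both C57 pools, and in 7 both lay below. Over all named genes the shares were 21.1% and 20.1%. The median was 0.07 without Il10-/- pool 2 and also without C57 pool 2. Pla2g5, a secreted phospholipase, had 1.88 and 1.87 in the Il10-/- pools, against -0.68 and -0.22 in the C57 pools (2.33 ± 0.25, adjusted p = 0.000865). Slpi, a protease inhibitor of mucosal surfaces, had 1.52 and 1.75 in the Il10-/- pools, against -0.48 and 0.01 in the C57 pools (1.87 ± 0.23). Both were called whichever pool was left out. Duoxa2, the maturation factor of the oxidase DUOX2, rose by 1.51 ± 0.23, while Duox2 itself had a difference of 0.35 ± 0.32 (adjusted p = 0.779). Nos2, the inducible nitric oxide synthase, rose by 0.98 ± 0.21 and Nox1, an epithelial oxidase, by 0.77 ± 0.18. Pla2g2a, a bactericidal phospholipase, rose by 1.05 ± 0.20. C57BL/6 mice are known to carry a disrupted Pla2g2a gene. Itln1, the intelectin of goblet and Paneth cells, had -3.68 and -3.81 in the Il10-/- pools, against -0.04 in C57 EPA pool 1 and -3.05 in pool 2. Between 3 and 4 members were called when a pool was left out.

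Complement genes had 5 of 15 called higher and 0 lower (median 0.30). C1ra, a protease of the first component, rose by 1.13 ± 0.18 and C4b by 1.02 ± 0.15. C2 (0.72), C1s1 (0.64) and the integrin chain Itgb2 (0.53) were also called. Most of the 5 called members lost the call in at least 1 fit without a pool. Among 19 genes of matrix remodelling the stromelysin Mmp3 rose by 1.65 ± 0.23 and the inhibitor Timp2 fell by 0.71 ± 0.16. Timp2 was called in none of the fits without a pool, while Mmp3 was called in all 4. Mmp3 had 2.36 and 2.45 in the Il10-/- pools, against 0.51 and 1.01 in the C57 pools. Mmp13 and Mmp10 had differences of 1.01 and 0.96 and were not called.

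**Figure D4:**
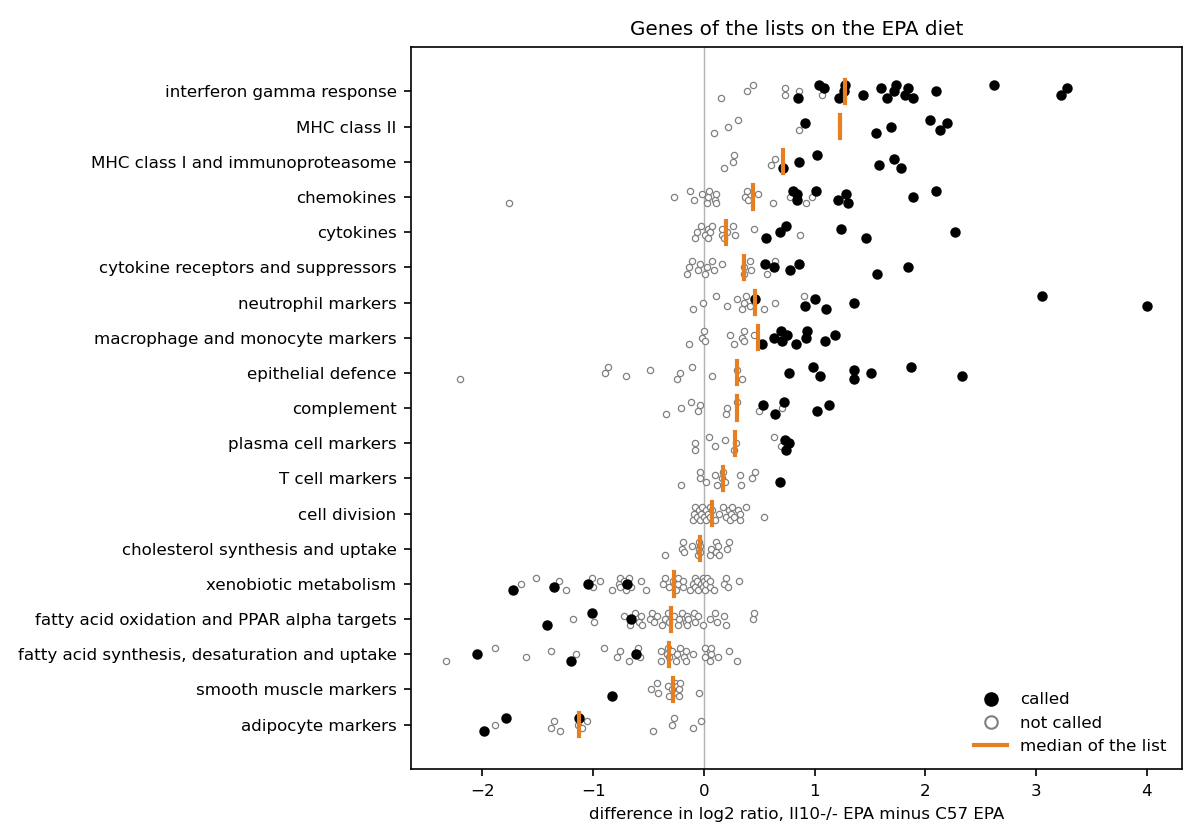
Difference in log2 ratio, Il10-/- EPA minus C57 EPA (horizontal axis), of each measured gene in 19 of the 46 lists. Filled points are called, open points are not, and the bar is the median of the list. The lists were chosen with earlier results of these data known. Interferon gamma and MHC class II genes have medians of 1.28 and 1.23 and adipocyte markers one of -1.13.

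A small number of genes that handle fatty acids fell in Il10-/- mice. Of 38 measured genes of fatty acid oxidation and PPAR alpha targets 3 were called lower and 0 higher, 31 had differences below 0 and the median was -0.29. Ppara, the receptor itself, had -1.05 and -1.42 in the Il10-/- pools, against -0.15 and -0.30 in the C57 pools (-1.01 ± 0.17, adjusted p = 0.00897). Pdk4, a kinase that diverts cells from glucose to fat as fuel, had -1.69 and -1.90 in the Il10-/- pools, against -0.60 and -0.16 in the C57 pools (-1.42 ± 0.22). Acot1, a thioesterase, fell by 0.66 ± 0.13 and was called in none of the 4 fits without a pool. Without Il10-/- pool 2 none of the 3 was called, and without C57 pool 2 Ppara alone was. The median was -0.11 without Il10-/- pool 2. Angptl4, a PPAR target that inhibits lipoprotein lipase, had -0.74 and -1.08 in the Il10-/- pools, against 0.66 in C57 EPA pool 1 and -0.50 in pool 2, and was not called (adjusted p = 0.342).

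Genes of fatty acid synthesis, desaturation and uptake had 3 of 36 called lower and 0 higher, 27 below 0 and a median of -0.32. Acsl3, which activates fatty acids for storage, had 0.53 and 0.70 in the Il10-/- pools, against 1.59 and 2.05 in the C57 pools (-1.20 ± 0.16, adjusted p = 0.00269). Cd36, a fatty acid transporter, had -2.76 and -2.42 in the Il10-/- pools, against -0.14 and -0.94 in the C57 pools (-2.05 ± 0.38). Dgat2, the last enzyme of triglyceride synthesis, fell by 0.62 ± 0.13. Cd36 was called in 1 of the 4 fits without a pool, and its difference was -1.65 without C57 EPA pool 1. Scd1, the stearoyl desaturase, had a difference of -1.15 ± 0.61 and was not called. The list had 2, 1, 1 and 5 called members without Il10-/- pool 1, Il10-/- pool 2, C57 pool 1 and C57 pool 2.

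Markers of fat cells moved with these genes. All 15 measured adipocyte markers had differences below 0, 3 of them called (Lpl, Plin4 and Lep), with a median of -1.13. Their mean level was -0.24 and -0.10 in the Il10-/- pools, against 1.15 and 0.54 in the C57 pools. Lpl, lipoprotein lipase, had -2.27 and -2.39 in the Il10-/- pools, against 0.09 and -0.79 in the C57 pools (-1.98 ± 0.39). Plin4, a coat protein of lipid droplets, had -0.66 and -0.34 in the Il10-/- pools, against 1.69 and 0.89 in the C57 pools (-1.79 ± 0.34). Lep, the hormone leptin, fell by 1.13 ± 0.24. Adipoq, the fat cell hormone adiponectin, had 0.68 and 0.97 in the Il10-/- pools, against 3.08 and 2.33 in the C57 pools, and was not called (-1.88 ± 0.48, adjusted p = 0.0745). The number called was 0 without Il10-/- pool 1, 1 without Il10-/- pool 2, 0 without C57 pool 1 and 3 without C57 pool 2, with medians of -1.07, -1.25, -0.76 and -1.44. Aoc3, an amine oxidase of fat and vessels, had a difference of -1.38 and was called in 1 of the 4 fits. The part of fat tissue in the differences of Cd36 and Lpl was not tested.

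Enzymes that detoxify drugs and dietary compounds fell in a few cases. Of 50 measured genes of xenobiotic metabolism 4 were called lower and 0 higher, 40 had differences below 0, and the median was -0.27. Gsta4, a glutathione transferase that removes products of lipid peroxidation, had -0.74 and -0.76 in the Il10-/- pools, against 0.38 and 0.21 in the C57 pools (-1.05 ± 0.11, adjusted p = 0.00098). Its pools were tight within each genotype, and it was called whichever pool was left out. Aadac, an esterase, had -2.23 and -2.80 in the Il10-/- pools, against -1.29 and -0.28 in the C57 pools (-1.73 ± 0.33), and was not called without pool 2 of either genotype. Sult1c2, a sulfotransferase, fell by 1.35 ± 0.23 and Ugt2b5, a glucuronosyltransferase, by 0.70 ± 0.12. Sult1c2 was not called in any of the 4 fits (adjusted p = 0.0566 to 0.0851). The carboxylesterases Ces1g and Ces1d and the cytochrome Cyp4b1 had differences of -1.31, -1.24 and -1.65 and were not called. The list had 3, 1, 3 and 2 called members without Il10-/- pool 1, Il10-/- pool 2, C57 pool 1 and C57 pool 2.

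Genes of the eicosanoid pathway, in which EPA competes as a substrate, had 3 of 35 called higher and 0 lower, with a median of 0.01. These were Pla2g5 and Pla2g2a, which release fatty acids from phospholipids, and Alox5ap, the partner of 5-lipoxygenase in leukotriene synthesis (0.62 ± 0.11). Alox5ap had 0.76 and 0.88 in the Il10-/- pools, against 0.18 and 0.22 in the C57 pools. Pla2g5 was called whichever pool was left out, while Alox5ap was called only without Il10-/- pool 1 and Pla2g2a only without C57 pool 1. Ptgs2, the inducible cyclooxygenase, had 0.88 and 0.52 in the Il10-/- pools, against 0.44 and 0.44 in the C57 pools, and was not called (0.26 ± 0.14, adjusted p = 0.47). Among 21 sensors of fatty acids and their mediators Ppara alone was called. Ffar4, the receptor for long-chain n-3 fatty acids, had 1.33 and 1.39 in the Il10-/- pools, against 0.67 and 0.58 in the C57 pools, and was not called (0.74 ± 0.21, adjusted p = 0.102). Of 18 genes of cholesterol synthesis and uptake 0 were called (median -0.04).

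Some genes of the absorptive epithelium were called, where 1.66% of all named genes were called higher. Of 34 genes of colonocyte transport and differentiation 2 were called higher and 0 lower (median 0.05). Aqp4, a water channel, had -0.07 and 0.16 in the Il10-/- pools, against -0.85 and -0.57 in the C57 pools (0.75 ± 0.15). Of its 3 features, at 0.57 to 0.88, 1 was called, and the gene was not called without Il10-/- pool 2. Slc9a3, the sodium-proton exchanger of the apical membrane, had a difference of 0.78 ± 0.17 as the mean of 2 features that disagree, at -0.03 and 1.59. Muc4, a membrane mucin, was called at 0.74 ± 0.17 as 1 of 8 goblet cell markers. It was not called without Il10-/- pool 1, without Il10-/- pool 2 or without C57 pool 1. Tac1, the precursor of substance P, was called at 0.62 ± 0.10 as 1 of 20 enteroendocrine markers. The 2 features of Tac1 disagree, at 0.09 and 1.15, and it was not called without Il10-/- pool 1 or without C57 pool 2. Slc9a3 was called in none of the fits without a pool. Among 18 tight junction genes Cldn8 was called. Genes of cell division (29 measured), endoplasmic reticulum stress (20), crypt base and Wnt targets (16), antioxidant defence (18) and the respiratory chain (14) had 0 called, with medians between -0.04 and 0.11. At the 2.36% called over all named genes, 0 calls in lists of this size do not set these lists apart. The 5 measured epithelial markers had 0 called.

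Structural cell types of the wall gave a mixed picture. All 14 smooth muscle markers had differences below 0 (median -0.27), and Synm, an intermediate filament protein, was called (-0.83 ± 0.14). Their mean level was 0.09 and -0.02 in the Il10-/- pools, against 0.43 and 0.29 in the C57 pools. Of 17 endothelial genes 2 were called higher and 2 lower. The adhesion molecules Icam1 and Vcam1, which bind passing leukocytes, rose by 0.93 ± 0.18 and 0.68 ± 0.12, while Kdr, the VEGF receptor, and Emcn, a sialomucin of capillaries and veins, fell by 0.82 ± 0.11 and 0.68 ± 0.13. Kdr had -1.63 and -1.76 in the Il10-/- pools, against -0.83 and -0.92 in the C57 pools, and was called whichever pool was left out, while Synm, Icam1, Vcam1 and Emcn were not called in at least 1 of those fits. Selp, a further adhesion molecule for leukocytes, had a difference of 0.06 ± 0.09 (adjusted p = 0.885), and the 2 features of Vcam1 were at 0.30 and 1.07. Of 17 stromal genes Thy1 was called higher (0.56 ± 0.12), with features at 0.33 and 0.80, and it was called only in the fit without Il10-/- pool 1. The lists of neuron and glia (16), red blood cell (5), pancreatic (14) and sex-linked genes (4) had 0 called. In the list of tryptophan and polyamine enzymes, Arg1, the arginase that competes with nitric oxide synthase, rose by 0.92 ± 0.18 beside Ido1 and Wars, whose differences were 2.63 and 1.04. Arg1 and Wars were called in none of the fits without a pool and Ido1 in all 4.

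The genotype difference on EPA was then set beside the difference on the other 3 diets. Each mean difference came from the 4 arrays of its diet. The standard errors and calls came from the same fit over all arrays of the series. The calls of a gene on the 4 diets therefore share a variance estimate and are not independent of each other. The number of named genes called was 396 on EPA (2.36%), 327 on AA (1.96%), 1192 on OA (7.11%) and 1912 on CO (11.4%). Of the 396 called on EPA, 391 of 396 had the same sign on AA, 391 of 395 on OA and 389 of 396 on CO, where the share over all named genes was 60%, 64.9% and 65.8%. In the same direction 209 were called on AA, 319 on OA and 331 on CO, and 0 in the opposite direction. On all 4 diets 186 were called. The genes called higher on EPA, which were chosen on that diet, had a median difference of 0.84 there, against 0.68 on AA, 1.02 on OA and 0.87 on CO.

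The test of the difference itself, EPA against the mean of AA, OA and CO, called 0 of 23219 genes and unnamed features in limma (0%, 1108 at an unadjusted p under 0.05, smallest adjusted p 0.582). Against a single diet 0 were called as well, with 919 at an unadjusted p under 0.05 against AA, 1182 against OA and 1821 against CO, and smallest adjusted p-values of 0.99, 0.231 and 0.155. This does not show that the genotype differences are equal. On EPA and on no other diet 33 genes were called, 18 higher and 15 lower, and 1 of them was called whichever EPA pool was left out. Mal, a lipid raft protein of apical transport, had the smallest p in the test against the other diets. It had 1.83 and 1.99 in the Il10-/- EPA pools, against -0.59 and 0.28 in the C57 EPA pools, a difference of 2.07 ± 0.25, while the differences on AA, OA and CO were 0.98, -0.07 and 0.19. The difference between EPA and the other diets was 1.70 ± 0.29 (adjusted p = 0.582). C57 EPA pool 1 had the lowest Mal level of all 16 arrays.

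For some inflammatory genes, picked after their values were seen, the value on EPA was the largest of the 4 diets. The lists they come from or resemble did not share this. The interferon gamma list had a median of 1.28 on EPA, against 1.45 on AA, 1.92 on OA and 1.72 on CO. Macrophage and monocyte markers had 0.49 on EPA, against 0.37, 1.09 and 0.84, and neutrophil markers 0.46, against 0.29, 0.63 and 0.45. Camp had a difference of 1.10 on EPA, against 0.08 on AA, 0.45 on OA and -0.05 on CO. Mpo had 0.46 on EPA, against 0.00, 0.06 and -0.11. Its EPA value is the mean of 2 features, at 0.30 and 0.62, with 1 of them called. Neither Camp nor Mpo kept its call in every fit without 1 EPA pool. Saa3, an acute phase protein of inflamed tissue, had 1.36 ± 0.30 on EPA, against 0.21, -0.14 and 0.61, and was not called when any 1 EPA pool was left out. None of the 3 passed the test against the other diets after adjustment. S100a9 had 4.00 on EPA, against 3.12, 4.37 and 4.50, and Ubd had 3.23, against 3.21, 3.11 and 2.73. Lipid genes among the largest falls varied: Cd36 had -2.05 on EPA, against -1.79, -0.86 and -1.06, and Lpl had -1.98, against -1.82, -0.86 and -0.88. Pdk4 had -1.42, against -1.0, -2.52 and -1.71, and Acsl3 had -1.20, against -1.04, -1.47 and -1.34. On EPA and AA alike the first C57 pool was the array with high fat and small intestine genes, and the part of these pools in the values of Cd36 and Lpl was not tested. Xenobiotic genes had a median of -0.27 on EPA with 4 called lower, against -0.28 with 8 on AA, -0.60 with 22 on OA and -0.66 with 20 on CO. Over all named genes 0.706% were called lower on AA, 3.07% on OA and 4.64% on CO. Of the 50 members 16 had an unadjusted p under 0.05 in the limma test against the other diets and 0 were called. Over all named genes 834 of 16687 had such a p and 0 were called. Other lists held such genes too, with 7 of 20 macrophage and monocyte markers, 7 of 34 colonocyte genes and 5 of 20 enteroendocrine markers. The MHC class II list had 0 of 10.

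**Figure D5:**
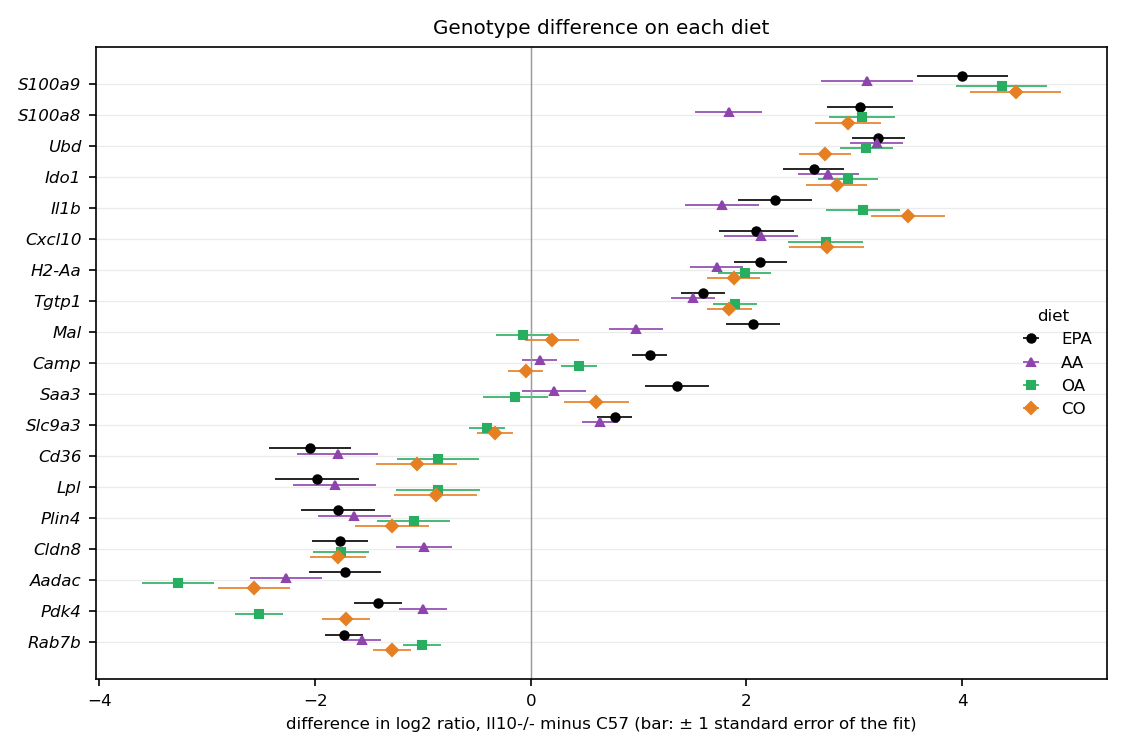
Genotype difference in log2 ratio, Il10-/- minus C57 (horizontal axis), with bars of 1 standard error of the fit, for 19 genes on the EPA, AA, OA and CO diets. Ubd has 3.23, 3.21, 3.11 and 2.73 on EPA, AA, OA and CO, while Mal has 2.07 on EPA and -0.07 on OA.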

How the data were processed

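Each array carried Cy3-labelled RNA of a colon pool and Cy5-labelled common reference RNA, per the labels. The authors deposited 1 processed log2 ratio per feature and array. The submitters' processing notes name limma without version or role, and the sources used here give neither normalization nor background correction. The direction, colon over reference, was settled from kidney and liver genes, whose median lay between -3.39 and -2.43 on the 16 arrays. Brightness was not used here, so dim or saturated spots went unmarked, and precision is limited by the number of arrays.

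The table held 44290 features, 32042 with 1 gene symbol from the platform annotation and 47 with several, which named no gene. By gene ID 31906 were matched to current mouse symbols. Features with a value, other than the most shared one, on all 4 EPA arrays (33185) were kept, and features of a symbol were aligned and averaged. limma 3.58.1 in R 4.3.3 fitted 8 group means over 16 arrays (8 residual degrees of freedom, prior 4.02), with Benjamini-Hochberg adjustment over 23407 tests (16773 named genes and 6634 unnamed features). An exact test of 2 against 2 pools cannot go below p = 0.333. The fit was tested on simulated data.

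The genes named are the 15 largest called rises and falls, the members of 46 gene lists, Il10, and a few genes said to be chosen after their values were seen. The members and lists were chosen with earlier results of these data known. Lists are described by counts and medians without a test. Tables and figures used Python 3.11.15, numpy 2.4.6, pandas 2.3.3 and matplotlib 3.10.9. Promoter windows were read from RefSeq for 13499 measured genes.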

Additional observations from a re-analysis of the deposited data

How the results depend on the processing

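The counts of called genes on EPA kept within 1.5 times of 477 tests (279 named genes higher, 117 lower) in several settings. These were most shared values kept, array weights, quantile normalization, a robust prior and both other filters on measured values. The array weights were equal within each group, at 0.843 for both C57 EPA pools. They could therefore not lower the weight of C57 EPA pool 1 alone. Fitting the 4 EPA arrays alone, with fewer degrees of freedom, called 123 (76 higher, 22 lower). Features tested singly gave 181 named calls lower, and Slc9a3 then had a difference of -0.0329 in 1 of its 2 features. Leaving out Il10-/- OA pool 1 gave 74 lower, and counting it as EPA gave 892 (440 higher, 275 lower). Leaving out 1 EPA pool gave 165 to 301 in all, 93 to 190 higher and 35 to 94 lower. The difference between EPA and the other diets had 0 calls in each alternative that tests it. With the pool number as a replicate block 509 were called. The numbers do not pair the pools: differences between pools 1 and 2 correlated at 0.169 between the EPA groups and at -0.396 to 0.409 over 28 pairs of groups, across genes. Of 396 named genes, 375 were called in the same direction with the block and 85 with the 4 EPA arrays alone. With features tested singly, the feature with the largest adjusted p kept the call in 282 and had the opposite sign in 5. The 124 genes that follow were chosen for the text, mostly by size of difference or by list, and do not stand for all 396. Over 124 named called genes and their alternatives, 1450 of 1857 values kept sign and call, 406 kept the sign alone and 1 reversed.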
